A study of Mus musculus with 2 samples.

Results

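The secreted Wnt inhibitors described here are the 10 genes *Dkk1*, *Dkk2*, *Dkk3*, *Sfrp1*, *Sfrp2*, *Sfrp4*, *Sfrp5*, *Frzb*, *Wif1* and *Sost*, chosen by symbol from the 26514 genes that both gene lists hold under 1 symbol each. All 10 were found in both libraries. Their transcripts were followed through 15 clusters of osteogenic and mesenchymal cells of the mouse coronal suture, the fibrous joint between the frontal and parietal bones. Both groups were wildtype embryos of the strain given as C57/BL6, 1 taken at E15.5 and 1 at E17.5 (days of embryonic development), with no transgene or treatment named. The E15.5 library pooled 10 sutures, freed with collagenase II and dispase and cleared of dead cells with a kit. The E17.5 library joined 16 sutures of 2 litters, digested with collagenase IV in 3 batches (10, 3 and 3 sutures) and sorted by FACS. The batches were made into separate libraries as a technical check and joined in 1 matrix with barcode suffixes 1 to 3, and each stage is called a library below. With 1 deposited sample per stage, and a single E15.5 preparation, differences between stages were not tested. Stage, enzyme, sorting, sequencing site and depth, gene list and counting software cannot be told apart.

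Wnt proteins signal by bringing a Frizzled receptor together with the co-receptor LRP5 or LRP6 at the cell surface, which stabilises β-catenin and promotes bone formation in the skull. The secreted inhibitors act outside the cell in different ways: the Sfrp proteins, *Frzb* (a further member of that family) and *Wif1* bind the Wnt ligands themselves, whereas *Dkk1*, *Dkk2* and *Sost* (sclerostin) bind LRP5 or LRP6. *Dkk3* is a divergent Dkk family member that does not act through LRP5 or LRP6 in the way *Dkk1* does.

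In GRCm38, *Sfrp1* lies on chr8:23411502-23449632, *Sfrp2* on chr3:83766321-83774316, *Sfrp4* on chr13:19623104-19632994 and *Sfrp5* on chr19:42197971-42202252. *Frzb* lies on chr2:80411970-80447625, *Wif1* on chr10:121033960-121100650, *Dkk1* on chr19:30545863-30549665 and *Dkk2* on chr3:132085292-132180304. *Dkk3* lies on chr7:112116017-112159057 and *Sost* on chr11:101962458-101967015. In the GENCODE annotation no member is overlapped by another gene on its own strand. *Sfrp2* is overlapped by the antisense gene *Gm26771* (chr3:83773853-83789956) over its last 464 bases, and since 3′ capture reads that end and the sources used here do not state how strand was counted, reads of the pair may have been shared. RefSeq promoter entries (GRCm38.p6) were found for 7 members, all but *Dkk3*, *Sfrp1* and *Sfrp4*. The 250 bases before the RefSeq start are shown for 4 members whose start is the same base in both annotations and whose patterns differ. They are *Sfrp2* (highest in LIG), *Dkk2* (ectocranial and meningeal), *Sfrp5* (a few E15.5 osteogenic clusters) and *Sost* (a few OG4 cells). Capitals mark each CG dinucleotide.
Sfrp2 (chr3:83766071-83766320, plus strand): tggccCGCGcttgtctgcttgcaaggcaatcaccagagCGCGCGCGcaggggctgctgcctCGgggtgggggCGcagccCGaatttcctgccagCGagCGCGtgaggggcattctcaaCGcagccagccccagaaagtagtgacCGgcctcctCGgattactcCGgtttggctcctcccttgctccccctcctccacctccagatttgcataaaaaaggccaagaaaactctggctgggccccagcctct
Dkk2 (chr3:132085042-132085291, plus strand): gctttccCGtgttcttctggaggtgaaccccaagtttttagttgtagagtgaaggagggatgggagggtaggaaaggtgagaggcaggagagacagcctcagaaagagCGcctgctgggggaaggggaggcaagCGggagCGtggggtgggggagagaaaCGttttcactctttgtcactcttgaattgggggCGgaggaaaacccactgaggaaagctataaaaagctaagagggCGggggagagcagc
Sfrp5 (chr19:42202253-42202502, minus strand): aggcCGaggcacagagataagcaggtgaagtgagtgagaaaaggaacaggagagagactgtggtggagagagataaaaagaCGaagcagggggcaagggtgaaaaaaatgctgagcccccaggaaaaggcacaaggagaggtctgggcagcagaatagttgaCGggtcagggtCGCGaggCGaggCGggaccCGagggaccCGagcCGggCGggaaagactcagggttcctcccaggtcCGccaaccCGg
Sost (chr11:101967016-101967265, minus strand): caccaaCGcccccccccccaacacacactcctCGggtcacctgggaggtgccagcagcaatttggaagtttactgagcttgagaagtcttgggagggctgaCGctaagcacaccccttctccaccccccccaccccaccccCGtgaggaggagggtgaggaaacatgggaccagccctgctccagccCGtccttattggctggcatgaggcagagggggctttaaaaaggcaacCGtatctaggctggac
The window held 16 CG dinucleotides for *Sfrp2* and 13 for *Sfrp5*, against 7 for *Dkk2* and 6 for *Sost*, and the median over 32851 RefSeq promoters was 6. The TATA motif TATAAA, searched on both strands, was present in the windows of *Dkk1*, *Dkk2* and *Wif1* and in 12.4% of all promoters. The TCF/LEF motif CTTTGAT (3.21% of all promoters) and the RUNX motif AACCACA (4.40%) were found in none of the 7 windows, which says only that these letters are not there.

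In the E15.5 matrix 5335 cells carried a cluster name from the authors' table, and in the E17.5 matrix 6830 did. Their median depths were 8510 and 12302 unique molecular identifiers (UMIs) per cell. The clusters are grouped here as osteogenic (OG1 to OG4 and the proliferating PO1 and PO2), ectocranial (EC1 to EC4 and LIG) and meningeal (MG1 to MG4). Osteogenic cells made up 1287 of the labelled E15.5 cells and 3425 of those at E17.5, which changes any value taken over all cells. Of the marker genes checked, *Lef1* and *Inhba* of OG2 were not 2-fold above the other cells at E17.5 (1.96- and 1.54-fold) and *Pthlh* of OG1 was not at E15.5 (1.56-fold), while the others passed in both libraries. A total of 190 barcode sequences occurred in both matrices, 42 of them on labelled cells of both libraries. Levels are given as CPM, the UMIs of a gene summed over the cells of a cluster and scaled to the summed UMIs of those cells. Since 1 UMI stands for 1 captured molecule, CPM is not scaled by transcript length, and capture may still differ between genes. The 95% intervals, exact Poisson for levels and exact conditional for ratios, cover counting error only, and clusters are called apart only where their intervals do not overlap. The clusters were drawn by the authors on the same cells, so a level by cluster is a description. As a measure of free RNA, unlabelled cells with UMIs of at least 2 leukocyte genes and no other gate were used (E15.5: 706 cells, median depth 7150 UMIs, E17.5: 746 cells, 9932 UMIs), since these inhibitors are known mainly from mesenchymal and epithelial cells.

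The inhibitors differed by orders of magnitude in level, and *Sfrp2* supplied most of their transcripts. Together the 10 genes reached 2518 CPM over all labelled E15.5 cells and 2400 at E17.5, of which *Sfrp2* was 80.2% and 82.8%. By role, the Wnt-binding inhibitors other than *Sfrp2* summed to 224 CPM (219 to 228) at E15.5 and 169 (167 to 172) at E17.5. The LRP5/6-binding inhibitors summed to 165 CPM (162 to 169) and 63.1 (61.5 to 64.8). The make-up differed between clusters: *Sfrp2* supplied 93.4% and 97.2% of the inhibitor UMIs in LIG but 17.7% and 24.1% in OG4, where the LRP5/6-binding genes supplied 24.0% and 20.4%. In MG3 the LRP5/6-binding share was 29.9% at E15.5 and 13.8% at E17.5.

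**Figure D1:**
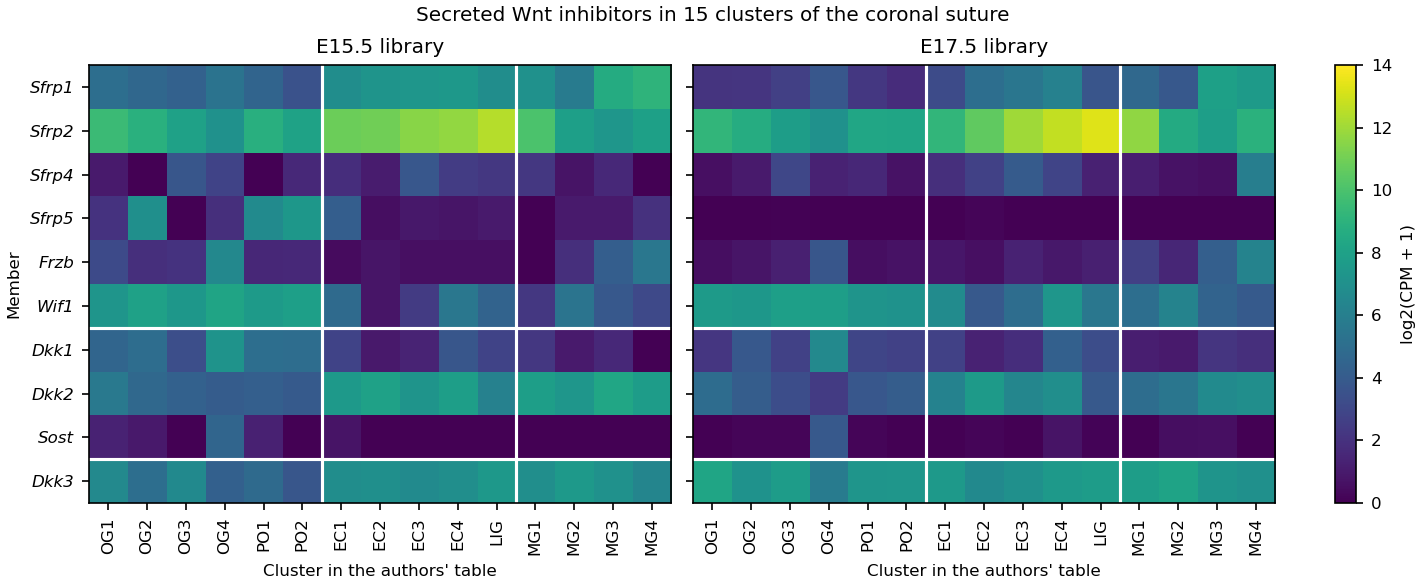
Level of each member (rows, grouped as Wnt-binding, LRP5/6-binding and *Dkk3*) in each of 15 clusters (columns, grouped as osteogenic, ectocranial and meningeal) in the E15.5 and E17.5 libraries, as log2(CPM + 1) of summed UMIs. *Sfrp2* is highest in LIG in both libraries, and *Sfrp5* is seen in OG2, PO1 and PO2 at E15.5 only.

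**Figure D2:**
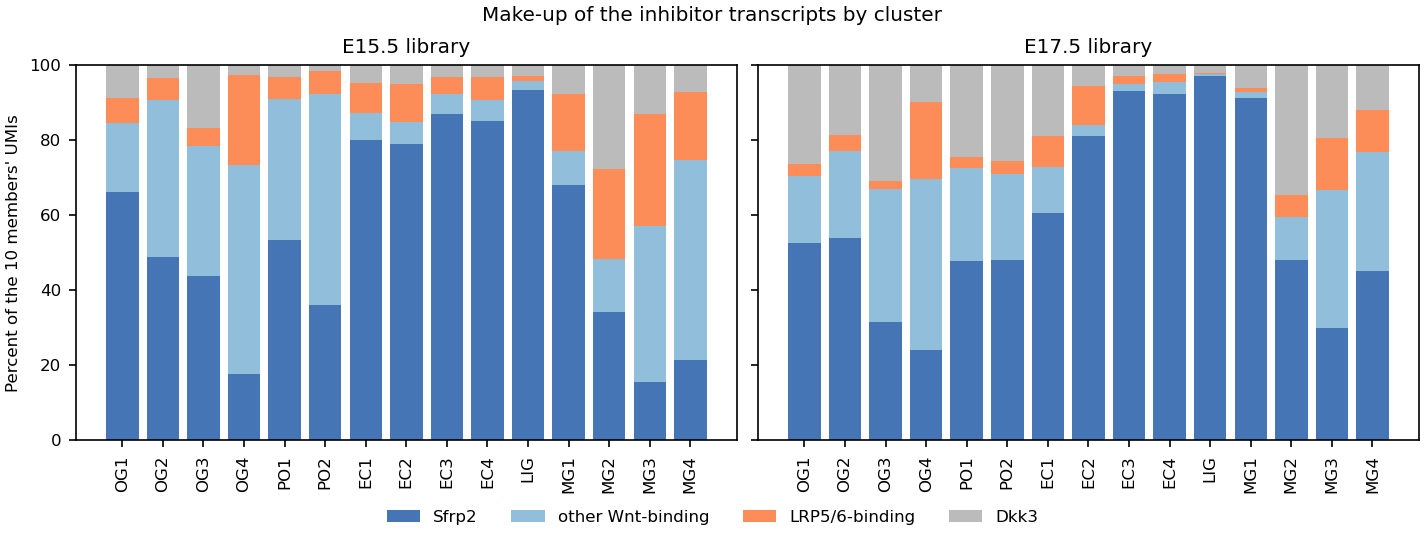
Percent of the 10 members' UMIs (vertical axis) that came from *Sfrp2*, from the other Wnt-binding inhibitors, from the LRP5/6-binding inhibitors and from *Dkk3* in each cluster of each library. *Sfrp2* makes up 93.4% and 97.2% of the LIG bar, left and right, against 17.7% and 24.1% of the OG4 bar.

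*Sfrp2* was highest in the ectocranial layers and above all in LIG. In LIG it reached 5580 CPM (5507 to 5653) at E15.5 and 10093 (10028 to 10158) at E17.5, and it was 3380 and 6782 CPM in EC4. It was lowest in OG4, at 134 CPM (118 to 152) and 136 (129 to 143), so LIG and OG4 did not overlap in either library. The order LIG, EC4, EC3 held in both libraries with each step apart. Below them, EC1 was at 1881 CPM at E15.5 and 582 at E17.5, a 3.23-fold lower level (3.05 to 3.42), whereas MG1 was at 1046 and 3332 CPM, a 3.19-fold higher level (2.827 to 3.602). MG1 held only 28 cells at E15.5. Over all labelled cells the levels were 2021 and 1986 CPM, while ectocranial cells alone went from 2951 to 5544 CPM, 1.88-fold (1.86 to 1.89). In the 3 suffixes of E17.5 the level over all labelled cells was 961, 2171 and 2215 CPM, with suffix 1 below E15.5 and the others above. Suffix 1 held 32 LIG cells and no MG1 cell. It was also the lowest suffix within EC4 (4584, 6810 and 8647 CPM) and EC2 (1009, 1807 and 1624 CPM). In OG1 (655, 578 and 600 CPM) and MG3 (308, 172 and 211 CPM) it was the highest. The part of cluster make-up in the spread between suffixes was not tested. Within LIG the suffixes were at 8262, 10260 and 10079 CPM, all above E15.5. Leukocyte-gated cells carried *Sfrp2* at 192 CPM (182 to 204) and 262 (252 to 273). The levels of MG3 and OG4 at E15.5, and of MG3, OG3 and OG4 at E17.5, were below those values. An *Sfrp2* UMI was found in 99.8% of LIG cells in the E15.5 library and 100% in the E17.5 library, and in 39.0% and 74.4% of leukocytes. After thinning to 3000 UMIs these shares were 99.6% and 99.9% in LIG and 22.5% and 36.3% in leukocytes.

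*Sfrp1*, the second Sfrp member found in most clusters, was highest in the MG3 and MG4 meningeal clusters and much lower at E17.5. MG4 was at 558 CPM (503 to 618) at E15.5 and 196 (177 to 217) at E17.5, and MG3 at 397 (370 to 426) and 245 (224 to 267), so that the highest cluster changed from MG4 to MG3. The ectocranial clusters ranged from 114 to 177 CPM in the first library and from 8.30 to 70.3 CPM in the second. The osteogenic clusters ranged from 10.3 to 38.7 and from 2.47 to 12.8 CPM. Of these, OG3 and PO2 overlapped the leukocyte-gated cells at E15.5, and all but OG4 did so at E17.5. The E17.5 level was at least 2-fold lower in 14 of 15 clusters, from 2.51-fold in EC4 (2.20 to 2.87) to 14.02-fold in EC1 (9.03 to 22.9), and 1.62-fold lower in MG3 (1.45 to 1.82). The 14 include PO2, with 5 and 4 UMIs and an interval that holds no change. Over all labelled cells *Sfrp1* went from 129 to 23.4 CPM, 5.53-fold lower. Leukocyte-gated cells went from 10.6 to 2.77 CPM, 3.81-fold lower (2.38 to 6.26), and chondrocyte-gated cells from 164 to 18.7 CPM, 8.75-fold lower (7.14 to 10.8). In the 3 barcode suffixes of E17.5, *Sfrp1* over all labelled cells was 26.8, 21.6 and 23.8 CPM. The share of MG4 cells with an *Sfrp1* UMI was 98.4% (91.6 to 100.0) at E15.5 and 76.2% (69.8 to 81.9) at E17.5, against 5.38% and 2.68% of leukocytes, and 71.0% and 41.1% after thinning, against 1.10% and 0.804%.

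*Sfrp5* was a transcript of E15.5 osteogenic cells that was nearly undetected at E17.5. The E15.5 level was 169 CPM (135 to 210) in PO2, 125 (114 to 136) in OG2 and 102 (88.9 to 117) in PO1, in which each neighbouring pair overlapped. EC1 followed at 16.9 CPM (12.6 to 22.2), and the 11 other clusters, at 0 to 3.12 CPM, overlapped the leukocyte interval of 1.01 to 3.40 CPM. At E17.5 only 2 *Sfrp5* UMIs were counted in all labelled cells, 1 in EC2 and 1 in OG3, against 894 at E15.5. OG2 gave 513 UMIs in the E15.5 library but 0 of its 7929797 in the E17.5 library, and with a limit of 3 counts for that 0 the level was at least 330-fold lower, while the exact conditional interval of the ratio starts at 268-fold. Of 488 OG2 cells at E15.5, 190 had a UMI (38.9%, Clopper-Pearson interval 34.6 to 43.4), at most 10 in a cell, whereas 0 of 522 did in the later library, which at a limit of 3 counts allows a share of 0.575%, and the Clopper-Pearson interval ends at 0.704%. The 3 barcode suffixes of E17.5 held 0, 2 and 0 *Sfrp5* UMIs. Leukocyte-gated cells held 12 UMIs at E15.5 and 1 at E17.5. Because it did not reach 50 UMIs in each library, *Sfrp5* is not among the 9 members counted below.

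*Sfrp4* and *Frzb* were low and restricted. *Sfrp4* was highest in EC3 at E15.5, at 12.8 CPM (10.7 to 15.1), with OG3 at 12.4 (7.07 to 20.1) not apart from it. At E17.5 it was highest in MG4, at 62.1 CPM (51.4 to 74.4), where the E15.5 library had 0 UMIs in 64 cells. With the limit of 3 counts for that 0, MG4 was at least 13.8-fold higher at E17.5, while the exact conditional interval starts at 11.02-fold. There 44 of 202 MG4 cells carried an *Sfrp4* UMI (21.8%, 16.3 to 28.1). *Frzb* was highest in OG4 at E15.5, at 90.6 CPM (77.3 to 106), and in MG4 at E17.5, at 75.3 (63.5 to 88.7). OG4 went to 12.2 CPM (10.2 to 14.5) at E17.5, 7.43-fold lower (5.86 to 9.44), and its *Frzb* cells from 87 of 190 (45.8%) to 77 of 527 (14.6%), although E17.5 OG4 cells were the deeper, with a median of 19349 UMIs against 7352. After thinning the shares were 21.0% and 3.23%, and leukocytes had 0.425% and 0.536% before thinning. MG4 was at 45.1 CPM (30.5 to 64.5) at E15.5, and MG3 was near 17 CPM in both libraries, at 17.3 and 17.6. In ectocranial cells *Frzb* gave 0.547 and 0.956 CPM, no more than the upper ends of the leukocyte intervals (1.42 and 1.09).

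*Wif1* was enriched broadly in osteogenic cells, with lower levels in some ectocranial clusters that were higher at E17.5. At E15.5 its 6 osteogenic clusters were at 158 to 285 CPM and at E17.5 at 141 to 235, and the highest was OG4 at E15.5 (285, 261 to 311) and OG3 at E17.5 (235, 227 to 244), with OG4 (230) not apart from it. At E15.5 every osteogenic cluster was above every other cluster, of which EC4 was highest at 45.9 CPM (39.6 to 53.0). At E17.5 EC4 was at 165 CPM (154 to 177), not apart from OG2 at 166, and EC1 was at 106 (93.7 to 119), with 66.0, 144 and 126 CPM in the 3 suffixes. Osteogenic cells as a whole held more *Sfrp2*, at 430 and 331 CPM, than *Wif1*. The leukocyte-gated cells, however, held *Sfrp2* at 192 and 262 CPM, so the order of the 2 genes beyond free RNA was not tested. *Wif1* in osteogenic cells was at 224 and 201 CPM, 14.6 and 3.64 times the level of the remaining cells. Ectocranial cells were at 13.3 and 61.7 CPM, 4.63-fold higher at E17.5 (4.15 to 5.17). Leukocyte-gated cells moved the same way, being at 6.98 CPM (5.05 to 9.40) and 38.5 (34.7 to 42.7), 5.52-fold higher (4.02 to 7.76). The E17.5 levels of EC2 (14.1), EC3 (31.5), LIG (46.5), MG1, MG3 and MG4 were below the leukocytes or overlapped them, while those of EC4, EC1 and MG2 (76.2) were above them. At E15.5 EC4, EC1 (28.0, 22.4 to 34.5) and LIG (21.3, 17.02 to 26.4) were already above the leukocytes. The part of free RNA in the ectocranial difference was not tested. Ectocranial cells with a *Wif1* UMI were 5.02% and 31.1% (2.87% and 13.3% after thinning), and leukocytes 2.97% and 19.0% (1.10% and 6.84%).

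*Dkk1*, an LRP5/6 antagonist and a known product of osteoblasts and osteocytes, marked OG4. It was 144 CPM (127 to 162) there at E15.5 and 95.9 (90.1 to 102) at E17.5, which is 17.02 and 15.7 times the level of all remaining labelled cells, and no other cluster overlapped. The next clusters at E15.5 were PO1, OG2, PO2 and OG1 at 22.9 to 31.8 CPM, which were not apart from each other. At E17.5 they were at 3.68 to 13.8 CPM, and each of the 4 was at least 2-fold lower, up to 6.22-fold in OG1 (4.00 to 9.66). EC4, at 12.5 and 18.7 CPM, was the ectocranial cluster with most *Dkk1* in both libraries. Over all labelled cells *Dkk1* was 1.21-fold higher at E17.5 (13.5 and 16.3 CPM), but within osteogenic cells it was 1.83-fold lower (45.1 and 24.7 CPM, 1.65 to 2.02). About the same share of OG4 cells had a *Dkk1* UMI, 53.2% (45.8 to 60.4) and 52.8% (48.4 to 57.1), and after thinning this was 27.3% (20.8 to 34.5) and 19.4% (16.1 to 23.0). Leukocytes had 1.13% and 3.08%.

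*Dkk2*, which also binds LRP5/6, had nearly the opposite distribution and was low in osteogenic cells. At E15.5 it was highest in MG3, at 308 CPM (284 to 334), followed by EC2 at 254 (244 to 265) and EC4 at 231 (217 to 246). At E17.5 it was highest in EC2, at 195 CPM (186 to 205), followed by EC4 at 121 (111 to 132) and MG4 at 120 (105 to 137), which were not apart. Osteogenic clusters were at 14.5 to 50.4 and 4.48 to 29.9 CPM, and at E15.5 OG3, OG4, PO1 and PO2 overlapped the leukocytes at 13.5 CPM. *Dkk2* was at least 2-fold lower at E17.5 in 7 of 15 clusters, among them MG1 (7.25-fold), LIG (4.94-fold, 3.99 to 6.13), MG2 (3.74-fold) and MG3 (3.01-fold). In EC2 it was 1.30-fold lower (1.22 to 1.39). Leukocyte-gated cells were 2.81-fold lower (1.93 to 4.14). EC2 cells with a *Dkk2* UMI were 86.1% and 78.6% (48.5% and 37.8% after thinning), against 6.37% and 4.29% of leukocytes.

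**Figure D3:**
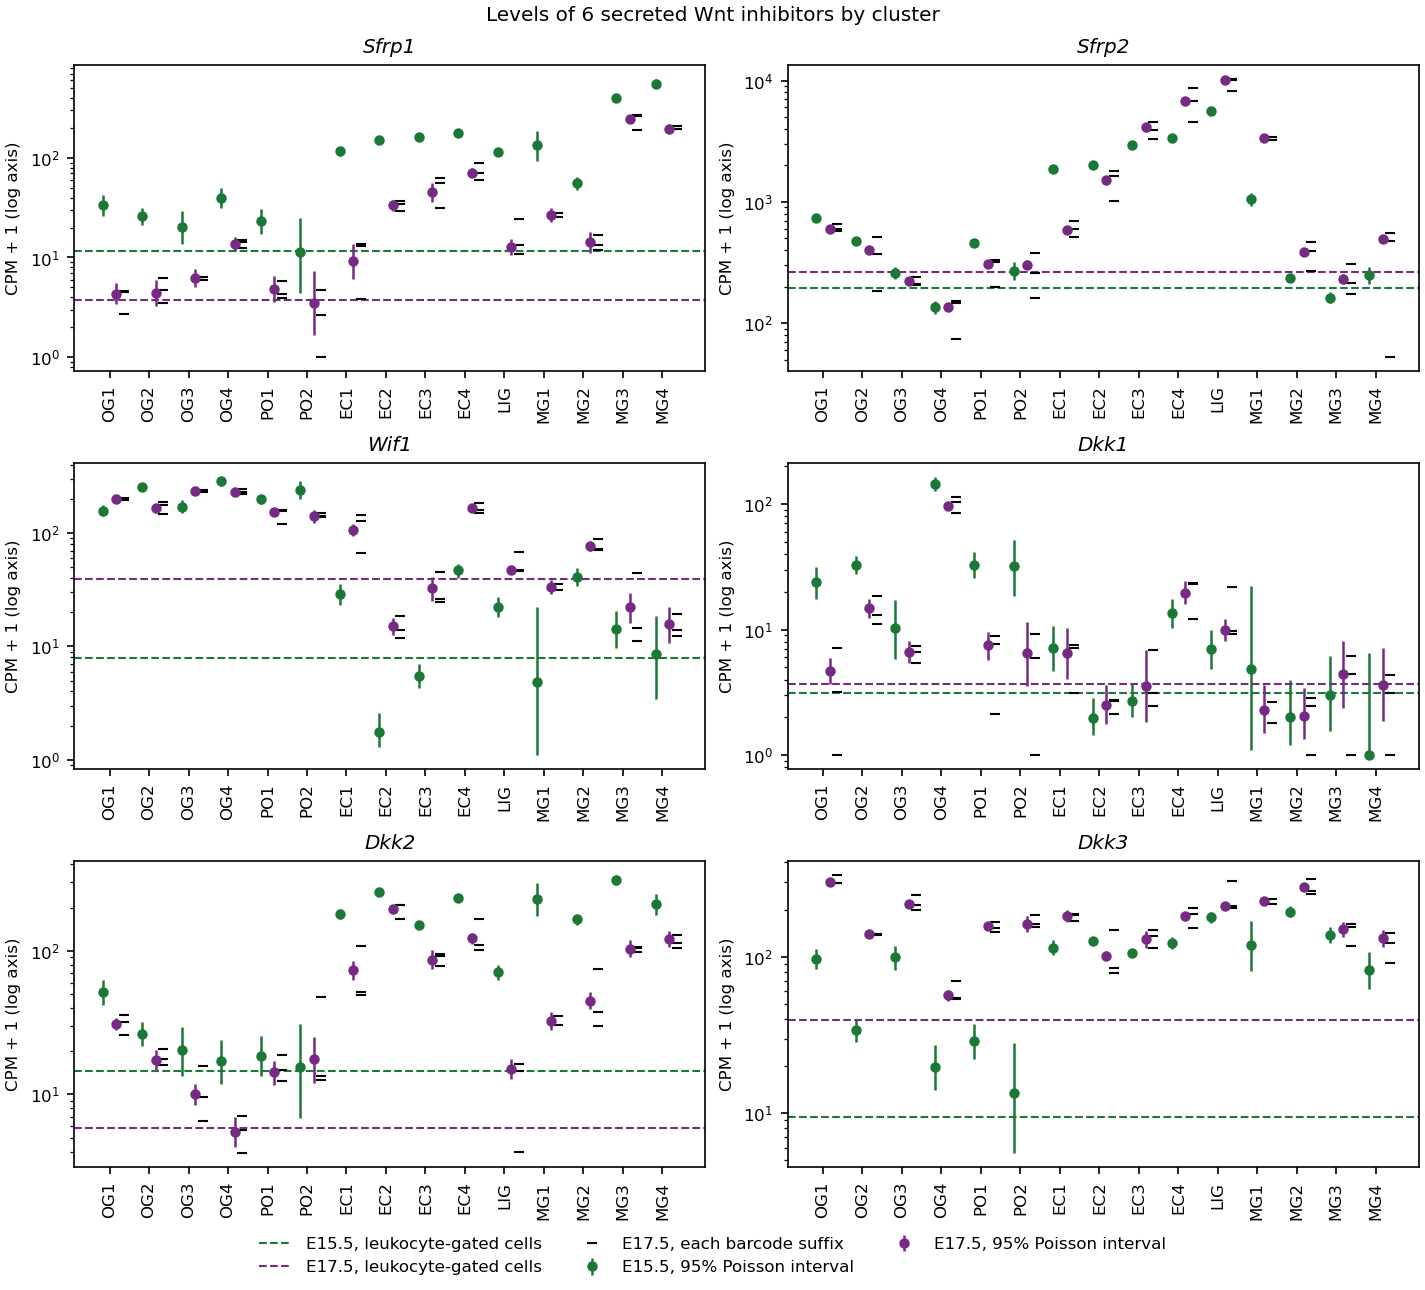
CPM + 1 on a log axis for 6 members in each cluster, with 95% Poisson intervals. Green is E15.5, purple is E17.5, black dashes are the 3 barcode suffixes of E17.5, and dashed lines are leukocyte-gated cells of each library. *Dkk1* stands out in OG4 (144 and 95.9 CPM), and *Dkk2* and *Wif1* are high in different groups of clusters.

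*Sost*, the LRP5/6 antagonist known from osteocytes, came from very few cells. OG4 held 41 of the 53 *Sost* UMIs of the E15.5 library and 148 of the 160 of the E17.5 library, at 22.7 CPM (16.3 to 30.7) and 14.1 (11.9 to 16.6). The intervals of the 14 other clusters overlapped that of the leukocytes, which had 1 and 3 UMIs. At E15.5 14 of 190 OG4 cells carried it (7.37%, 4.09 to 12.0) and at E17.5 8 of 527 (1.52%, 0.658 to 2.97), and leukocytes had 0.142% and 0.402%. After thinning these shares were 5.11% and 0.949% in OG4 and 0.157% and 0.268% in leukocytes. At E17.5 a single cell held 54 of the 148 UMIs and the top 5 cells held 98.0%, so the cluster level rests on a handful of cells. The 8 cells came from all 3 suffixes, with 4, 1 and 3 of 90, 216 and 221 OG4 cells. Among 3489 genes with at least 50 OG4 UMIs in each library, 1.92% were at least 2-fold higher in OG4 cells with a *Sost* UMI than in those without in both libraries. Of an osteocyte list of 7 genes beside *Dkk1*, 5 had this depth and all 5 were so, while 1 (*Spp1*) of the 8 genes of an osteoblast list was. *Dmp1*, a matrix protein of osteocytes, was 3869 CPM in E15.5 OG4 cells with *Sost* and 355 in those without, 10.9-fold higher (9.65 to 12.3). In the E17.5 library the values were 3004 and 61.5 CPM, 48.9-fold higher (42.5 to 56.2). *Phex*, which controls phosphate and mineralisation, was 3.94-fold and 58.5-fold higher, and *Ptprz1* 6.24-fold and 40.8-fold. *Pdpn*, a surface marker of early osteocytes, was 4.26-fold and 17.9-fold higher. Of 5 other inhibitors with this depth, 2 (*Dkk1* and *Frzb*) were 2-fold higher in both libraries. *Dkk1* was 3.21-fold (2.31 to 4.37) and 9.70-fold (7.67 to 12.1) higher, *Frzb* 2.71-fold and 11.9-fold, and *Wif1* 1.86-fold and 3.27-fold. *Mepe* gave 0 UMIs in the cells with *Sost* in both libraries and *Fgf23* 0 UMIs in all OG4 cells. Of the osteoblast list, *Alpl*, an early osteoblast enzyme, was 6.73-fold and 2.27-fold lower and *Ifitm5* 1.83-fold and 1.43-fold lower, while *Spp1* was 3.53-fold and 9.28-fold higher, and *Ibsp* and *Col1a1* were 2.95-fold and 4.70-fold higher at E17.5. The osteocalcin genes differed between the libraries, with *Bglap2* 1.56-fold lower at E15.5 and 15.1-fold higher at E17.5. The E15.5 cells with and without *Sost* had median depths of 7540 and 7352 UMIs, and the E17.5 cells 13650 and 19431.

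**Figure D4:**
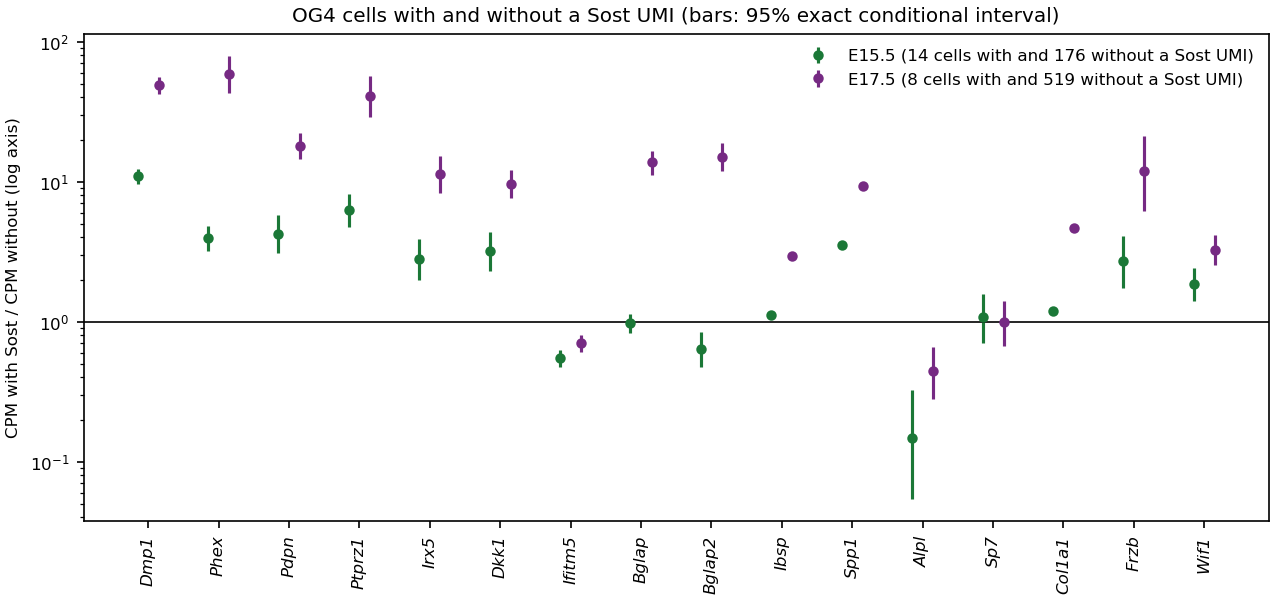
CPM in OG4 cells with a *Sost* UMI divided by CPM in OG4 cells without one, on a log axis, for the osteocyte list, the osteoblast list, *Frzb* and *Wif1*, with 95% exact conditional intervals. Genes without a UMI in the cells with *Sost* are not drawn. *Dmp1*, *Phex* and *Ptprz1* are the farthest above 1 at E17.5, at 48.9, 58.5 and 40.8.

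*Dkk3* was the least restricted member. At E15.5 it was highest in MG2, at 193 CPM (177 to 209), and LIG, at 177 (164 to 191), and was 12.4 to 98.2 CPM in the osteogenic clusters. At E17.5 it was highest in OG1, at 299 CPM (289 to 309), and MG2, at 276 (262 to 291), and the osteogenic clusters were at 55.5 to 299 CPM. It was at least 2-fold higher at E17.5 in all 6 osteogenic clusters, from 2.20-fold in OG3 (1.84 to 2.65) to 13.0-fold in PO2 (5.89 to 35.8), whose 6 E15.5 UMIs overlap the leukocyte level, and in none of the 9 ectocranial and meningeal clusters, which ranged from 0.805-fold in EC2 to 1.90-fold in MG1. Osteogenic cells as a whole went from 46.6 to 181 CPM, 3.88-fold (3.56 to 4.24), and their share with a *Dkk3* UMI from 25.9% to 83.5% (12.2% and 40.3% after thinning). Of the leukocytes 5.95% and 25.1% had one (2.03% and 8.58%). Leukocyte-gated cells went from 8.44 to 38.4 CPM, 4.55-fold (3.40 to 6.21), below each of the 15 clusters at E17.5. Chondrocyte-gated cells went from 30.8 to 121 CPM, 3.93-fold (3.48 to 4.43). The osteogenic ratio was not compared with the leukocyte one in a test.

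**Figure D5:**
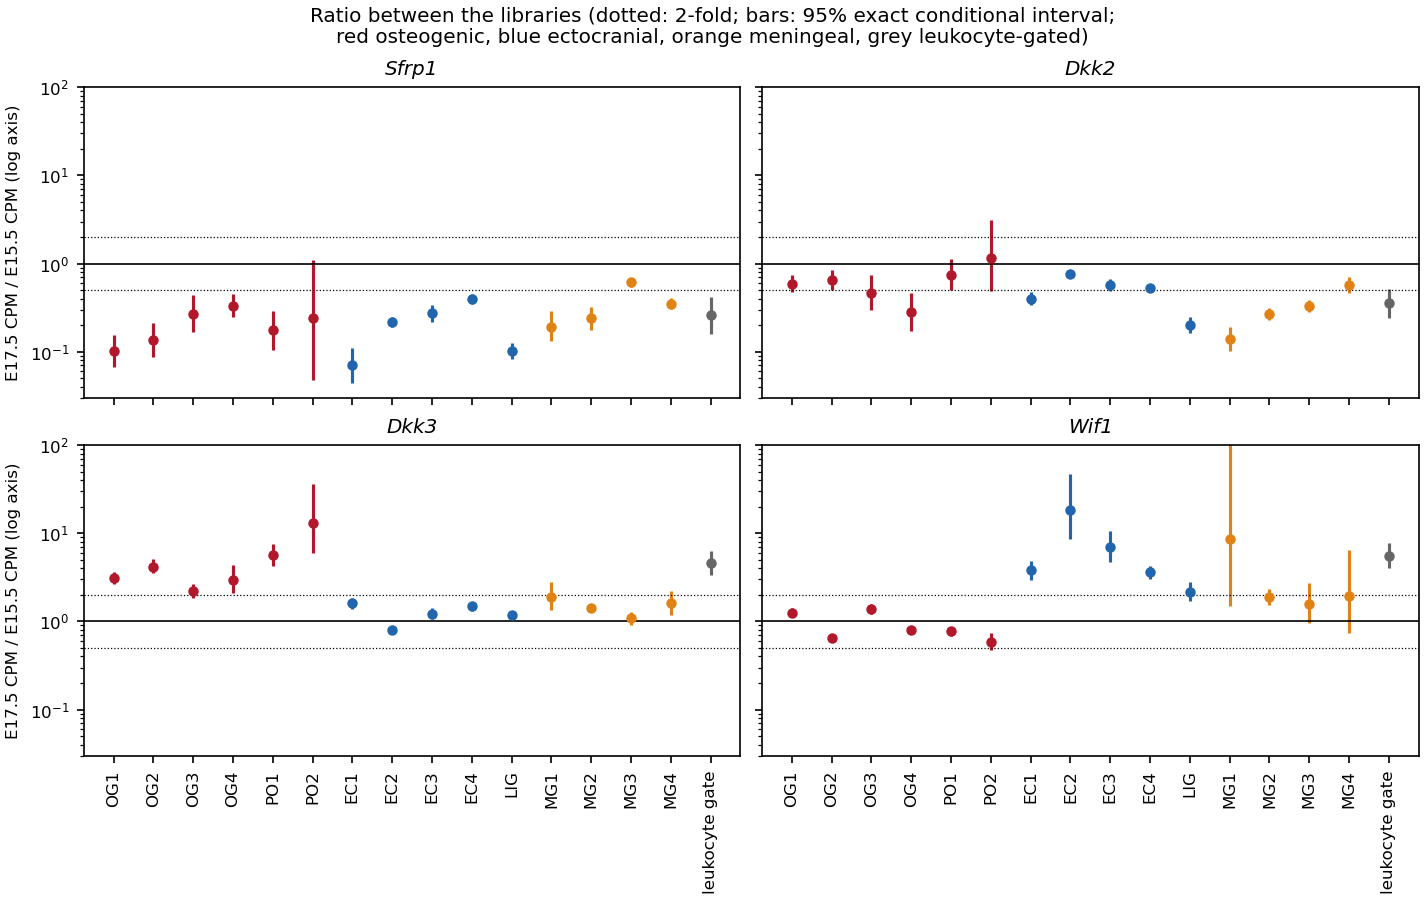
E17.5 CPM divided by E15.5 CPM, on a log axis, for *Sfrp1*, *Dkk2*, *Dkk3* and *Wif1* in each cluster and in leukocyte-gated cells, with 95% exact conditional intervals and dotted lines at 2-fold. The *Wif1* interval of MG1 reaches beyond the axis to 338. *Sfrp1* lies below 1 in all clusters. The *Dkk3* ratios above 2 are those of the 6 osteogenic clusters and of the leukocyte-gated cells (4.55).

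Set against all 11868 genes with at least 50 UMIs in each library, most of the inhibitors were enriched in 1 to 3 clusters. Of the 9 members that reached this depth, 7 (all but *Dkk3* and *Wif1*) had a cluster that exceeded the remaining labelled cells at least 2-fold in each library, against 20.7% of all genes. Osteogenic cells were 2-fold above the others for *Dkk1*, *Wif1* and *Sost* (3 of 9, 2.96% of all genes). Ectocranial cells were so for *Dkk2* and *Sfrp2* (2 of 9, 4.26%) and meningeal cells for *Frzb* (1 of 9, 3.02%), and *Sfrp1* missed the meningeal limit at E15.5, at 1.99-fold, and was 5.42-fold at E17.5. The E15.5 call of *Dkk2* was at 2.03-fold, and meningeal cells held more of it (221 CPM) than ectocranial cells (184 CPM), unlike at E17.5 (57.7 and 98.6 CPM). *Frzb* at E15.5 was higher in osteogenic cells (17.1 CPM) than in meningeal cells (12.3 CPM), also unlike at E17.5 (3.07 and 15.2 CPM). The highest cluster was the same in both libraries for *Dkk1*, *Sfrp2* and *Sost*, 3 of 9, which is near the 32.0% of all genes. Across the 15 clusters the E15.5 and E17.5 levels, as log2(CPM + 1), had Pearson's r of 0.93 for *Sfrp1*, 0.91 for *Wif1* and *Sfrp2*, 0.88 for *Dkk2*, 0.86 for *Sost*, 0.79 for *Dkk1*, 0.72 for *Frzb*, 0.50 for *Dkk3* and 0.11 for *Sfrp4*, and the median over all genes was 0.51. These are descriptions over 15 clusters defined on both libraries together.

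Between the libraries, *Wif1* was 2-fold higher at E17.5 over all labelled cells (65.2 and 137 CPM, 2.103-fold), 1 of 9 members against 4.84% of all genes. *Dkk2* (3.34-fold) and *Sfrp1* (5.53-fold) were 2-fold lower, 2 of 9 against 10.0%. With each cluster given the same weight *Wif1* was no longer 2-fold higher (0.15 on the log2 scale against 1.07), and *Sfrp4* took its place (1.03). *Dkk2* and *Sfrp1* stayed 2-fold lower. *Sfrp4* itself was at least 2-fold higher in only 2 clusters and at least 2-fold lower in 4. Its largest E17.5 level was that of MG4, at 62.1 CPM, where E15.5 had 0 UMIs. With these weights 3.77% of all genes were 2-fold higher and 7.04% were 2-fold lower. *Sost* was 1.59-fold higher over all labelled cells (1.09 and 1.73 CPM) but 1.61-fold lower in OG4 (1.11 to 2.29). The suffixes did not share that direction, since OG4 was at 29.4 CPM in suffix 1, above the 22.7 CPM of E15.5, and at 12.7 and 9.57 in the others. Counted by cluster, *Sfrp1* was 2-fold lower in at least 10 of 15 clusters, 1 of 9 members against 3.65% of all genes, and none was 2-fold higher in as many, against 1.87%. The median log2 ratio of the 9 members was -0.03, against 0.00 for all genes.

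Genes with the pattern most like each member were ranked by Pearson's r of log2(CPM + 1) over the 30 values of 15 clusters in 2 libraries. Each value was first centred on the gene's mean in its library, so a difference in mean level between the libraries does not enter r. For *Sfrp2* the first was its overlapping antisense neighbour *Gm26771* (r = 0.94), followed by *Angptl1* and *Mab21l1* (0.89 and 0.88). *Dkk2* was most like *Adamts5* (0.94), *Phactr2* and *Calml4* (both 0.90). For *Wif1* they included *Tnfrsf19* and *Runx1* (0.90 and 0.89), and for *Dkk1* *Ddx3x* and *Pth1r* (0.83 and 0.82). *Dkk3* was most like *Igf2*, *Grb10* and *Thbs3* (0.93, 0.90 and 0.89) and *Sfrp1* most like *Ntrk2*, *Gstm6* and *Sned1* (0.89, 0.89 and 0.88). *Frzb* was most like *Fam210b*, *Hint2* and *Slc12a7* (0.85, 0.83 and 0.80), *Sost* like *Bmp8a*, *Col22a1* and *Lipi* (each 0.90), and *Sfrp4* like *Htr1f*, *Id4* and *Wdr60* (0.70, 0.63 and 0.63). Among the members themselves, *Dkk2* and *Sfrp1* (0.78), *Dkk1* and *Wif1* (0.77) and *Dkk1* and *Sost* (0.75) were most alike, and *Dkk2* and *Wif1* were the most opposed (-0.78). The points of each r share libraries and depths.

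After thinning to 3000 UMIs, from median depths of 8510 and 12302, few of the inhibitors were detected in a single cell. Thinning lowers detection, and members per cell were not counted at full depth. A thinned cell had a UMI of 1.79 members on average at E15.5 and 1.56 at E17.5. No member was seen in 20.5% and 15.8% of osteogenic cells, against 0.724% and 2.99% of ectocranial cells, where *Sfrp2* alone was seen in 97.9% and 91.9%. The clusters with most cells holding at least 3 members were EC4 at E15.5 (36.9%) and MG4 at E17.5 (34.7%, with EC4 at 33.8%). Outside the labelled clusters, chondrocyte-gated cells (1460 and 362) carried *Sfrp1* at 164 and 18.7 CPM and *Wif1* at 16.5 and 110 CPM. Pericyte-gated cells (112 and 153) carried *Sfrp2* at 513 and 194 CPM and *Dkk2* at 65.2 and 34.9. These gates use a few markers each and the cells carry free RNA as well.

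The rest of the pathway was taken from a list of 65 Wnt genes, of which 46 had 50 UMIs in each library. Of these 46, 22 had a cluster that was 2-fold above the other labelled cells in both libraries (20.7% of all genes). Osteogenic cells were 2-fold above the others in both libraries for 4 of the 46 (2.96%), ectocranial cells for 10 (4.26%) and meningeal cells for 3 (3.02%). Among receptors of the inhibitors, *Lrp6*, the co-receptor bound by *Dkk1*, *Dkk2* and *Sost*, was 108 and 97.2 CPM in meningeal cells, 3.03-fold and 2.54-fold above the others, and 29.7 and 32.5 CPM in osteogenic cells. *Lrp5* was 11.6 and 20.9 CPM in meningeal cells, 3.18-fold and 2.63-fold above the others. *Lrp4*, which presents sclerostin, was 4.30 and 11.1 CPM over all labelled cells, highest in OG4 at E15.5 (14.9) and EC1 at E17.5 (36.4). *Kremen1*, which removes LRP6 from the surface together with *Dkk1*, was 15.96 and 21.3 CPM in osteogenic cells, and *Kremen2* had only 28 and 3 UMIs in all. The osteogenic set held the nuclear factors *Tcf7* (18.0 and 71.4 CPM, 35.0-fold and 13.2-fold) and *Lef1* (14.1-fold and 3.00-fold), the Wnt agonist *Rspo1* (36.6 and 39.5 CPM) and the ligand *Wnt6* (7.18-fold and 2.00-fold). *Wnt6* was low in osteogenic cells, at 10.3 and 3.82 CPM, and its highest E15.5 cluster was the meningeal MG4, at 27.1 CPM. The ectocranial set held the ligands *Wnt2* (298 and 243 CPM, 11.0-fold and 32.5-fold) and *Wnt2b*, the agonist *Rspo2* (11.9-fold and 11.3-fold) and the receptor *Fzd4* (4.71-fold and 4.65-fold). *Lgr6*, an R-spondin receptor, was 6.81-fold and 3.57-fold higher in meningeal cells but low there, at 4.78 and 4.83 CPM. It had 58 UMIs in all labelled E15.5 cells. Of the 46 genes, 7 were 2-fold higher at E17.5 (4.84% of all genes) and 15 were 2-fold lower (10.0%), 5 of these among the 10 ligands, and the median log2 ratio was -0.13 against 0.00 for all genes.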

How the data were processed

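Single cells of wildtype coronal sutures were captured with 10x Genomics Chromium 3′ v2 reagents, with 1 deposited sample per stage, of which E17.5 joins 3 separately prepared libraries. The authors deposited count matrices with the UMI count of each gene in each barcode, not normalized and including barcodes outside their cell filters, and a table of cluster names for the osteogenic and mesenchymal cells. Per the authors, reads were counted with Cell Ranger on mm10 and aggregated with default settings, and the E15.5 matrix header names version 3.1.0. The submitters' notes also name FastQC 0.11.7, MultiQC 0.9 and Seurat 3.2.0. The labelled E15.5 cells held 48607817 UMIs and those of E17.5 92585034. Every labelled E15.5 cell has fewer UMIs in the matrix than in the authors' table, and 5 of its 5340 cells are missing from the matrix, while the E17.5 totals equal the table. The gene lists hold 31053 and 27998 genes.

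UMIs were summed per cluster and library with Python 3.11.15, numpy 2.4.6, scipy 1.17.1 and pandas 2.3.3. Figures used matplotlib 3.10.9. Labelled cells were kept whatever their quality. Unlabelled cells needed at least 1000 UMIs, 1000 genes, at most 7.5% mitochondrial and 3% Hbb or Hba UMIs, and were gated by at least 2 markers of 1 type. No test and no p-value was computed, since each stage has 1 sample and E15.5 a single library. A call is a fold of at least 2, with counts below 3 set to a limit of 3, among genes with at least 50 UMIs in each library. Shares have Clopper-Pearson intervals at 95% and were also computed after thinning each cell to 3000 UMIs, which left out 160 labelled E15.5 cells. Doublets were kept, and an alternative dropped cells from percentile 94 of the Scrublet score upwards (scanpy 1.11.5, each suffix scored alone, expected rate 0.06). By its default threshold Scrublet called 415 of 8210, 9 of 1530, 28 of 3602 and 4 of 3635 cells. Intervals cover counting error only.

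The genes named are all 10 members, the 3 genes most like each member with at least 50 UMIs in each library, at most 4 genes of the Wnt list per compartment with the largest enrichment, the receptors *Lrp5*, *Lrp6*, *Lrp4*, *Kremen1* and *Kremen2*, and the osteocyte and osteoblast lists in cells with *Sost*. A result of this rule is not reported here. The members and lists were chosen with earlier results of these data known. Which barcode suffix belongs to which E17.5 batch is not given in the sources used here. Alternatives were other cell filters, each suffix alone, other normalizations and denominators, matching by identifier, other filters on low counts, 1.5-fold and 3-fold limits, equal cluster weights, thinning and Spearman's rho, and, chosen after seeing the data, at least 100 UMIs over both libraries. Counting, ratios and intervals were tested on simulated data.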

Additional observations from a re-analysis of the deposited data

How the results depend on the processing

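Most counts of members kept their value or stayed within 1.5 times of it. Enrichment in meningeal cells was called for 1 member, and for 2 (*Sfrp1* and *Frzb*) without doublets, without the 20 most abundant genes and at 1.5-fold, and for 0 at 3-fold. Of all genes 3.02% were so called, but 3.18% without doublets and 3.15% without the 20 most abundant genes. It was 6.61% at 1.5-fold and 1.36% at 3-fold. Enrichment in ectocranial cells was called for 2 members (4.26% of all genes), and for 1 (*Sfrp2*) at 3-fold (2.275% of all genes). Higher levels at E17.5 over all labelled cells were called for 1 member (*Wif1*), for 2 in suffix 1 of E17.5 (*Wif1* and *Sost*), for 3 with mean UMIs per cell and at 1.5-fold (*Dkk3*, *Wif1* and *Sost*), and for 0 with the mean of per-cell CPM and at 3-fold. The share of all genes so called was 4.84%, but 5.61% in suffix 1, 19.7% with mean UMIs per cell, 12.8% at 1.5-fold and 1.76% at 3-fold. With the mean of per-cell CPM it was 4.64%. Mean UMIs per cell moves the median log2 ratio of all genes from 0.00 to 0.58, and under it *Wif1* was also 2-fold higher in at least 10 clusters (1 member against 0). Of all genes 5.52% were so called, against 1.87%. At 1.5-fold, 2 members (*Dkk2* and *Sfrp1*) in place of 1 were lower in at least 10 clusters (8.97% of all genes against 3.65%). The highest cluster was shared by 5 members in place of 3 in suffix 1 of E17.5, which has no MG1 cells (26.9% of all genes against 32.0%). With no filter on UMIs, or at least 100 over both libraries, *Sfrp5* joined *Dkk2* and *Sfrp1* as lower at E17.5 (3 against 2). Under these 2 settings 16.5% and 11.3% of all genes were lower, against 10.0%. With equal cluster weights the member higher at E17.5 was *Sfrp4* in place of *Wif1* (3.77% of all genes against 4.84%). The log2 ratio of *Sost* under these weights was -0.74 against 0.66, and that of *Dkk1* -0.79 against 0.27. Of the 3 genes most like each member, Spearman's rho named all 3 again for *Sfrp2* and *Wif1*, 2 for *Dkk3*, 1 each for *Dkk1* and *Dkk2*, and none for *Sfrp1*, *Sfrp4*, *Frzb* and *Sost*. No paired analysis was possible because each stage has 1 sample. Depth limits *Sost*, *Sfrp4* and *Frzb*, with few UMIs in most clusters, and *Sfrp5* at E17.5.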
